A study of Homo sapiens with 2 samples.

Results

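The genes described here encode amino acid, peptide and monocarboxylate transporters of 9 solute carrier families: SLC1, SLC3, SLC6, SLC7, SLC15, SLC16, SLC36, SLC38 and SLC43. They were chosen by symbol among records with a protein-coding (NM) RefSeq accession, which gave 75 of 23709 records. Symbols of 3 more genes fit (SLC7A7, SLC16A7 and SLC38A6) but are paired with non-coding (NR) records, so these are no members. The cells were Caco-2, a human colorectal adenocarcinoma line from ATCC that can form enterocyte-like layers, grown untreated in DMEM with fetal bovine serum, penicillin/streptomycin and ciprofloxacin. Poly(A) RNA was sequenced from total RNA (the mRNA library, 9640364 reads) and from RNA that came down with ribosomes and their nascent chains (the RNC-mRNA library, 11083302 reads), which is meant to hold mRNAs under translation. Each level has 1 library, so differences have no replicate check, and whether both came from the same culture is not stated in the labels. The labels give no time after plating or confluence, on which the differentiation of this line depends.

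Amino acids enter epithelial cells through carriers that use sodium or proton gradients and through exchangers that trade one amino acid for another. The SLC7 light chains work only as dimers with a heavy chain of the SLC3 family, which brings them to the membrane. In the small intestine, peptides and free amino acids are taken up at the brush border and leave across the basolateral side, while SLC16 carriers move lactate and related acids with protons. Tumour lines commonly rely on the glutamine and leucine carriers SLC1A5 and SLC7A5. The study asks how the mRNA population on ribosomes differs from the total mRNA population.

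Levels are RPKM, which divides reads by the depth of the library and the length of the transcript, and can be set side by side between genes. In each pair of levels the total mRNA value comes before the RNC-mRNA value. The relative ratio of a gene is the log2 of its RNC-mRNA level over its mRNA level, with 0.1 RPKM added to each, minus the median of all 13402 records with a mean of at least 1 RPKM over both libraries. A value of 0 is thus the median record, and a value of -1 lies 2-fold below it. Intervals are exact 95% intervals of the recovered reads and cover counting error only.

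Of the 75 transporter genes, 46 had a mean of at least 1 RPKM and are called expressed. At 1 RPKM in a library, 45 members reached that level in total mRNA and 40 in RNC-mRNA, 39 of them in both. The 5 members of highest mean level held 43.7% of the members' summed RPKM in total mRNA and 49.0% in RNC-mRNA. These were SLC1A5, SLC3A2, SLC7A5, SLC38A1 and SLC38A2, carriers of glutamine, leucine and small neutral amino acids and the heavy chain of SLC7A5. In the RNC-mRNA library SLC16A1 was listed above SLC38A2 (42.3 against 40.6 RPKM), and SLC38A3 was level with SLC38A2 at 40.6 RPKM. The plot of levels gives every expressed member at both levels.

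**Figure D1:**
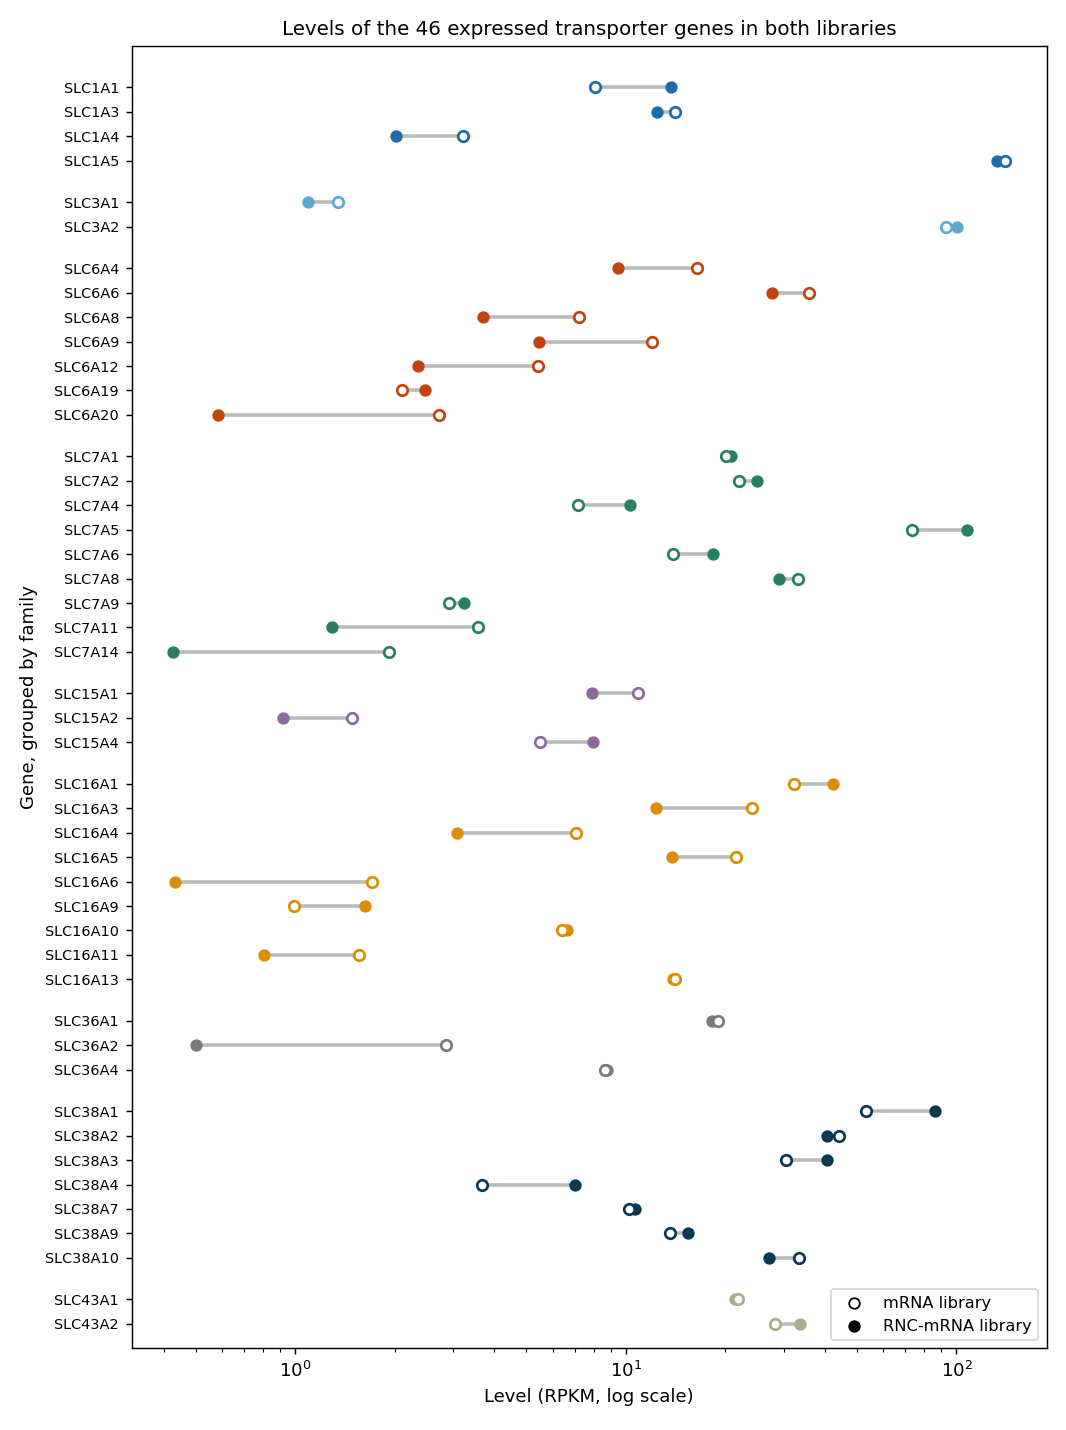
Level in RPKM (log scale) of each of the 46 expressed genes, grouped by family; open circles are the mRNA library, filled circles the RNC-mRNA library, and the grey line joins them. SLC1A5 is highest at 140.2 and 133 RPKM, and the filled circle lies left of the open one for 6 of the 7 SLC6 genes.

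Relative to the median record, 8 of the 46 expressed members were at least 2-fold lower in the RNC-mRNA library and 0 were at least 2-fold higher. The same rule called 8.88% of all expressed NM records lower and 1.33% higher (11.8% and 1.37% of all expressed records, NR included), against 17.4% of the members lower. The members were SLC36A2, SLC6A20, SLC7A14, SLC16A6, SLC7A11, SLC6A12, SLC16A4 and SLC6A9. Their counting intervals all lay below the median, and those of 5 lay wholly beyond 2-fold. As a whole the members were centred near the median: 22 lay above it and 24 below, with a median of -0.03 against 0.03 for NM records. With 1 RPKM added in place of 0.1, only SLC36A2 and SLC6A20 of the 8 stayed at least 2-fold lower. Of the 8, 6 have a mean below 5 RPKM. SLC36A2, SLC6A20, SLC7A14 and SLC16A6 were below 1 RPKM in the RNC-mRNA library (0.501, 0.581, 0.427 and 0.433 RPKM). They passed the filter on the mean only through their mRNA level, and the same filter was used for the NM records. Of all members, 39 reached 1 RPKM in both libraries.

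The families lay in different places along this scale. Of the 7 expressed SLC6 genes, 6 lay below the median, each with its whole interval below, and 3 were at least 2-fold lower (family median -0.90). Among 11940 expressed NM records, 47.4% lay below the median, 3516 had the whole interval below, and 8.88% were at least 2-fold lower. SLC38 had 5 of 7 genes above the median and none at least 2-fold lower (median 0.22). SLC7 had 6 of 9 above (median 0.19) but also 2 of the low genes, SLC7A11 and SLC7A14. SLC16 spread from -1.72 to 0.71 around a median of -0.61. The medians of SLC1 (-0.09, 4 genes), SLC36 (-0.02, 3 genes), SLC43 (0.15, 2 genes) and SLC15 (-0.42, 3 genes) rest on few members, as does SLC3 (-0.04, 2 genes). No test of a difference between families was made.

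**Figure D2:**
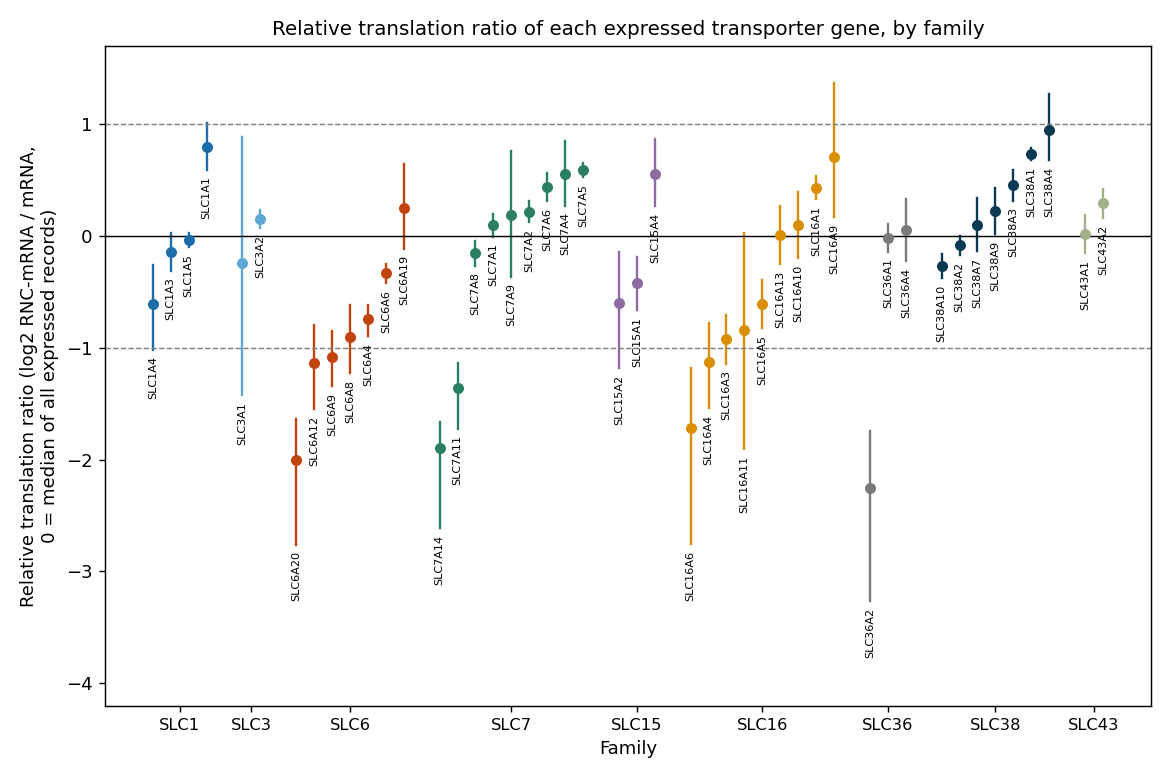
Relative ratio (log2, 0 = median of all expressed records) of the 46 expressed genes, ordered within each family; bars are exact 95% counting intervals and dashed lines mark 2-fold. The SLC6 genes reach from -2.01 to 0.25, and the SLC38 genes from -0.27 to 0.95.

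The bases around the start codon are shown for the 5 members of lowest and the 5 of highest relative ratio, since this context is the part of the mRNA that scanning ribosomes read as they begin translation. Each run holds positions -9 to 6, counted from the A of the start codon as 1, with positions -3, the ATG and position 4 in capitals. A purine at -3 and a G at 4 are the favoured letters at these places. Sequences are from GENCODE 29 transcripts matched by RefSeq accession, lowest ratio first.
SLC36A2: taagcaGtcATGTct
SLC6A20: gccgggGccATGGag
SLC7A14: tcgctcAagATGAgt
SLC16A6: agattaAgaATGAcc
SLC7A11: gtccctActATGGtc
SLC7A5: gcgcagAgcATGGcg
SLC16A9: tgtcttAcaATGGaa
SLC38A1: tttctaAtcATGAtg
SLC1A1: gcgacaGccATGGgg
SLC38A4: acagctCaaATGGat
On GRCh38 the start codons lie in the first coding exon, for SLC36A2 at chr5:151347458-151347460 on the minus strand, for SLC6A20 at chr3:45796417-45796419 on the minus strand, for SLC7A5 at chr16:87869420-87869422 on the minus strand and for SLC1A1 at chr9:4490680-4490682 on the plus strand. The SLC6A20 and SLC1A1 contexts both hold a purine at -3 and G at 4, at opposite ends of the ratios. The member of highest ratio, SLC38A4, is the one of the 10 that lacks the purine at -3.

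Across all 46 expressed members, 41 had the purine (89.1%, against 85.5% of expressed NM records with a matched transcript). G at position 4 was found in 30 members (65.2%, against 52.8%). The purine was found in 18 of the 22 members above the median, 16 of the 16 less than 2-fold below it and 7 of the 8 at least 2-fold lower. G at position 4 was found in 18, 9 and 3 of the same groups. Among NM records the purine had shares of 86.4% above the median and 81.8% at least 2-fold lower, and G at position 4 of 53.0% and 50.8%. An ATG upstream of the start was present in the 5' leader of 24 members (52.2%, against 51.6% of NM records). It was found in 9 of the 22 members above the median, 10 of the 16 less than 2-fold below it and 5 of the 8 low ones. Among NM records the shares were 53.4% above the median and 51.4% at least 2-fold lower. SLC38A1, with 7 upstream ATGs in its annotated leader, was among the members of highest ratio. The members had longer 3' untranslated regions than NM records (median 1896.5 against 989 nt). Their ratio followed neither this length nor the coding length closely (Spearman's rho 0.04 and -0.11 across the 46 genes, which share both libraries). These are descriptions of annotated transcripts, and the transcript ends used by these cells were not measured.

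Among the SLC1 carriers, SLC1A5, the main glutamine exchanger (ASCT2), had 140.2 and 133 RPKM. It ranked 415 and 510 among all records and was close to the median record (-0.04, interval -0.10 to 0.03). Its relative SLC1A4, an exchanger of alanine, serine and cysteine, was far weaker at 3.22 and 2.02 RPKM and lower on ribosomes (-0.61, interval -1.02 to -0.26). Of the 2 expressed glutamate carriers, SLC1A1 lay above the median and SLC1A3 was not resolved from it. SLC1A1, the epithelial glutamate and aspartate carrier (EAAT3), went from 8.07 to 13.7 RPKM (0.79, interval 0.59 to 1.01). SLC1A3, the glial type carrier, went from 14.1 to 12.4 RPKM (-0.14, interval -0.31 to 0.03). SLC1A3 was thus the more abundant of both in the mRNA library. In the RNC-mRNA library SLC1A1 was listed slightly above SLC1A3, on 567 and 574 reads, and this small difference was not tested. SLC1A2, the main glutamate carrier of the brain, was below the level called expressed at 0.734 and 0.263 RPKM.

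The heavy chain SLC3A2 (CD98hc) was the second most abundant member, with 92.8 and 100.4 RPKM (0.15, interval 0.07 to 0.24). Its light chain SLC7A5 (LAT1), which imports leucine and other large neutral amino acids, had 73.3 and 107.6 RPKM (0.59, interval 0.53 to 0.66, on 3212 and 5420 reads). SLC7A5 was thus below its heavy chain in the mRNA library and above it in the RNC-mRNA library. SLC7A6 (y+LAT2), which exchanges cationic for neutral amino acids, also lay above the median at 13.9 and 18.3 RPKM (0.43). SLC7A8 (LAT2), a basolateral neutral amino acid exchanger, lay slightly below at 33.1 and 28.99 RPKM (-0.15, interval -0.26 to -0.04). SLC7A11 (xCT), the cystine and glutamate exchanger that supplies glutathione synthesis, was the exception among these light chains. It had 3.56 and 1.29 RPKM (-1.36, interval -1.72 to -1.13, on 331 and 138 reads). Its antisense record SLC7A11-AS1 was listed at 0.423 and 0.0969 RPKM, and strand-specific counting is not stated, so reads where both overlap cannot be told apart.

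Summed over SLC7A5, SLC7A6, SLC7A8, SLC7A10 and SLC7A11, the light chains of SLC3A2 came to 123.9 and 156.3 RPKM. SLC7A7 (y+LAT1), the basolateral arginine exporter, adds 66.3 and 86.4 RPKM from its NR record (0.42), for sums of 190.3 and 242.6 RPKM. The light chain mRNAs together were therefore above the heavy chain mRNA at both levels. Pseudogenes of SLC7A5 were also listed, SLC7A5P1 at 1.01 and 3.23 RPKM and SLC7A5P2 at 5.48 and 1.99 RPKM. How reads shared with these near-identical copies were assigned is not given, so a part of the SLC7A5 value is uncertain.

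**Figure D3:**
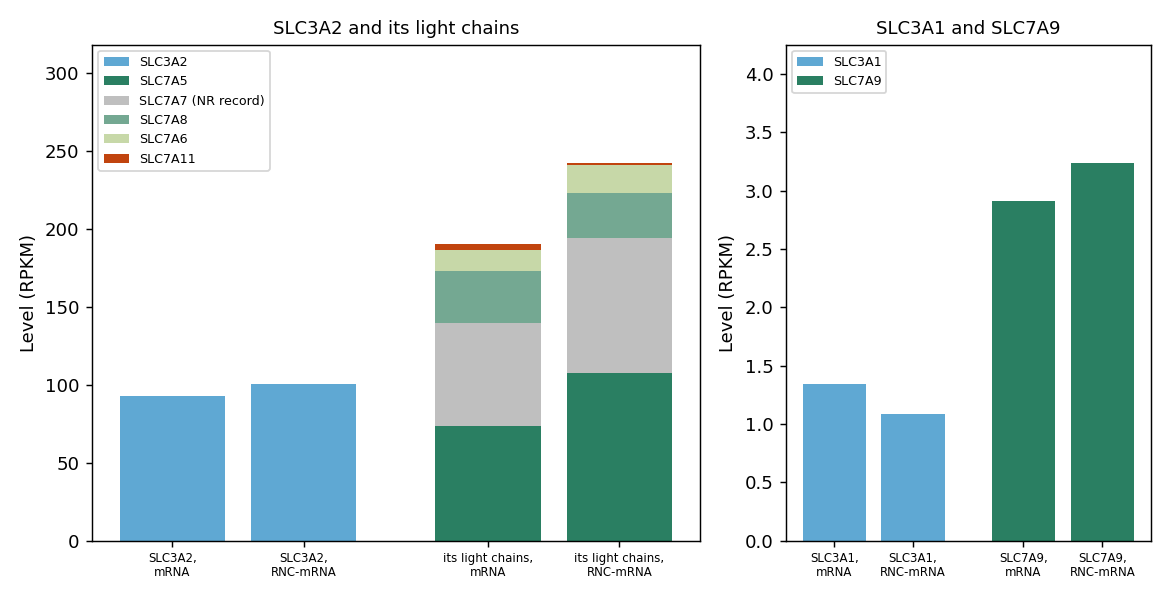
Level in RPKM of the heavy chains SLC3A2 (left) and SLC3A1 (right) beside their light chains, stacked by gene, in the mRNA and RNC-mRNA libraries. The stacked light chains of SLC3A2 reach 190.3 and 242.6 RPKM with the NR record of SLC7A7 (grey), and SLC3A1 and SLC7A9 stay under 4 RPKM.

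The brush border pair was present at low levels. SLC3A1 (rBAT), the heavy chain mutated in cystinuria, had 1.34 and 1.09 RPKM on as few as 15 and 14 reads, so its ratio was not resolved (-0.24, interval -1.42 to 0.89). Its partner SLC7A9, which takes up cystine and cationic amino acids, had 2.91 and 3.24 RPKM (0.19, interval -0.36 to 0.76). For both, a difference from the median was not detectable at this depth.

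The cationic amino acid carriers of SLC7 need no heavy chain. SLC7A1 (CAT1), the widespread arginine and lysine carrier, had 20.03 and 20.9 RPKM (0.10). SLC7A2, a cationic carrier with splice forms of different affinity, had 22.0 and 24.9 RPKM (0.22, interval 0.12 to 0.31). SLC7A4, a relative of unsettled function, had 7.18 and 10.3 RPKM (0.55, interval 0.27 to 0.85). These 3 lay above the median, whereas SLC7A14, a relative found in lysosomes, was at 1.91 and 0.427 RPKM (-1.90, interval -2.61 to -1.66). Its ratio, on 187 mRNA and 48 RNC-mRNA reads, was the third lowest among the expressed members.

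Most SLC6 genes had lower levels in the RNC-mRNA library. SLC6A6, the taurine transporter, was the most abundant at 35.9 and 27.7 RPKM (-0.33, interval -0.42 to -0.25). The serotonin transporter SLC6A4, which clears serotonin released in the gut, had 16.4 and 9.47 RPKM (-0.75, interval -0.89 to -0.61). SLC6A8, the creatine transporter, had 7.19 and 3.70 RPKM (-0.90). It has a close pseudogene copy, SLC6A10P, listed at 1.297 and 0.541 RPKM, so its reads are uncertain. The betaine and GABA carrier SLC6A12 had 5.42 and 2.35 RPKM (-1.14, interval -1.55 to -0.80). All 4 of these carriers of non-protein substrates were thus below the median.

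Among the SLC6 carriers of amino acids, SLC6A9 (GlyT1), the glycine transporter, had 12.0 and 5.46 RPKM (-1.08, interval -1.35 to -0.85). SLC6A20, the proline and imino acid carrier, had 2.71 and 0.581 RPKM on 142 and 35 reads. Its ratio was 4.02-fold below the median (-2.01, interval -2.76 to -1.64). SLC6A19 (B0AT1), the main sodium-coupled neutral amino acid carrier of the brush border, was the only expressed SLC6 gene above the median, at 2.11 and 2.46 RPKM (0.25, interval -0.11 to 0.64). The intervals of SLC6A19 and SLC6A20 did not overlap, although both are brush border carriers of similar mRNA level. SLC6A19 was itself not resolved from the median, and SLC6A20 passed the filter on the mean only through its mRNA level. With 1 RPKM added to each level, the ratios were 0.19 for SLC6A19 and -1.20 for SLC6A20. SLC6A9 was the member just inside the 2-fold line, and SLC16A3 (-0.92) the nearest outside it.

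SLC15A1 (PEPT1), the proton-coupled carrier that absorbs dietary di- and tripeptides and many oral drugs, had 10.8 and 7.88 RPKM (-0.42, interval -0.66 to -0.19). SLC15A2 (PEPT2), the high-affinity form of kidney, was at 1.48 and 0.915 RPKM (-0.60, interval -1.18 to -0.15). SLC15A4, a histidine and peptide carrier of lysosomes, went the other way, from 5.50 to 7.93 RPKM (0.56, interval 0.26 to 0.87). SLC15A3, the other lysosomal form, was not expressed by this rule (0.833 and 0.298 RPKM), and its ratio lay below the median (-1.19, interval -2.96 to -0.10, on 17 and 7 reads). NM records of low level leaned below the median too (2165 of 3409 from 1 to 5 RPKM). The position of SLC15A3 is therefore not read as a contrast with SLC15A4.

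The main monocarboxylate carriers also went opposite ways. SLC16A1 (MCT1), which takes up butyrate and exchanges lactate, had 32.2 and 42.3 RPKM (0.43, interval 0.33 to 0.53). SLC16A3 (MCT4), the lactate exporter of glycolytic cells, had 24.1 and 12.4 RPKM (-0.92, interval -1.14 to -0.71). Together they summed to 56.3 and 54.7 RPKM, so the total was nearly level while SLC16A1 took a larger part of it in the RNC-mRNA library. Their chaperone BSG (basigin) was far more abundant, at 288.1 and 288.5 RPKM (0.04). SLC16A7 (MCT2), a high-affinity form, was listed from an NR record at 2.03 and 0.734 RPKM (-1.32).

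The other SLC16 genes carry varied or unknown substrates. SLC16A5 (MCT6) had 21.6 and 13.8 RPKM (-0.61, interval -0.83 to -0.39) and SLC16A4 (MCT5) had 7.06 and 3.09 RPKM (-1.13, interval -1.54 to -0.78). SLC16A6 (MCT7), which exports ketone bodies in liver, had 1.705 and 0.433 RPKM on 65 and 19 reads (-1.72, interval -2.76 to -1.18). SLC16A11 had 1.55 and 0.801 RPKM, with an interval that reached the median (-0.84, interval -1.91 to 0.03). Near the median were SLC16A10 (TAT1), the aromatic amino acid carrier, at 6.39 and 6.65 RPKM (0.10), and SLC16A13 at 14.1 and 13.8 RPKM (0.01). SLC16A9, linked to carnitine, was the one gene of this group with its whole interval above the median. It had 0.989 and 1.63 RPKM (0.71, interval 0.17 to 1.37, on 38 and 72 reads). Its mRNA level was thus below 1 RPKM, and with 1 RPKM added to each level its ratio was 0.44.

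SLC36A1 (PAT1), a proton-coupled carrier of glycine, proline and alanine at the brush border and in lysosomes, had 18.9 and 18.2 RPKM (-0.02, interval -0.14 to 0.10). SLC36A4 (PAT4) was also at the median, with 8.67 and 8.75 RPKM (0.05). SLC36A2 (PAT2), the high-affinity form known from kidney, had the lowest ratio of all expressed members. It had 2.85 and 0.501 RPKM on 94 and 19 reads, 4.78-fold below the median (-2.26, interval -3.26 to -1.75).

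Of the 7 expressed SLC38 carriers, 5 lay above the median, and SLC38A2 and SLC38A10 below. SLC38A1 (SNAT1), a sodium-coupled glutamine carrier, had 53.4 and 86.4 RPKM (0.73, interval 0.68 to 0.79, on 4004 and 7447 reads). SLC38A4 (SNAT4), typical of liver and placenta, had 3.67 and 7.0 RPKM, the highest ratio of all expressed members (0.95, interval 0.68 to 1.27). SLC38A3 (SNAT3), a glutamine carrier of liver and kidney, had 30.5 and 40.6 RPKM (0.45, interval 0.32 to 0.59). SLC38A2 (SNAT2), whose gene is induced when amino acids are scarce, was at 44.2 and 40.6 RPKM (-0.08, interval -0.17 to 0.00). SLC38A1 and SLC38A2, close relatives of similar mRNA level, thus differed by more than their counting intervals.

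SLC38A9, SLC38A7 and SLC38A10, the other expressed members of this family, lay less than 2-fold from the median. SLC38A9, which reports lysosomal arginine to mTORC1, had 13.6 and 15.5 RPKM (0.22, interval 0.02 to 0.43). SLC38A7, which exports glutamine from lysosomes, had 10.2 and 10.7 RPKM (0.10). SLC38A10 was slightly lower at 33.5 and 27.1 RPKM (-0.27, interval -0.38 to -0.16). In SLC43, the leucine carriers SLC43A1 (LAT3) and SLC43A2 (LAT4), which work without a heavy chain, had 21.8 and 21.4 RPKM (0.02) and 28.2 and 33.6 RPKM (0.29, interval 0.16 to 0.42). SLC43A3, which carries purine bases, was nearly absent (0.190 and 0.132 RPKM).

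The other 29 members had means below 1 RPKM, the highest being SLC16A12 at a mean of 0.571. The lowest expressed member was SLC16A6 at a mean of 1.07. Listed at 0 in both libraries were 8, and a count of 0 allows up to 3 reads in each. Among them were SLC6A3, SLC6A5, SLC6A11, SLC6A18, SLC7A13, SLC15A5 and SLC36A3. SLC1A6 and SLC6A17 rested on 1 mRNA read, and SLC6A15 and SLC7A10 on 1 RNC-mRNA read. SLC38A8 stood apart from these, listed at 0 in the mRNA library and at 0.966 RPKM in the RNC-mRNA library on 14 reads. The exact interval of its relative ratio began at 1.57 and has no upper limit. Of the 21 with any reads, 18 were higher in total mRNA and 3 in RNC-mRNA. The same count over all records below 1 RPKM is not given here. NM records with a mean from 1 to 5 RPKM also leaned this way, with 2165 of 3409 below the median ratio. The count is therefore not read as a trait of these genes.

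Low ratios went with low levels. Of 13 members with a mean from 1 to 5 RPKM, 6 were at least 2-fold lower (46.2%, against 20.7% of NM records at that level). From 5 to 20 RPKM there were 2 of 19 (10.5%, against 6.06%), and at 20 RPKM and above 0 of 14 (0%, against 1.72%). The medians of the members in these ranges were -0.84, 0.01 and 0.12, and those of NM records -0.22, 0.03 and 0.16. Of the 6 low members from 1 to 5 RPKM, SLC36A2, SLC6A20, SLC7A14 and SLC16A6 passed the filter only through their mRNA level. Their share is therefore partly set by the filter on the mean, which was also used for the NM records. Across the 46 members, Spearman's rho between mean level and ratio was 0.43, against 0.28 across NM records. With the mRNA level in place of the mean, rho was 0.29 and 0.15. Both levels enter the ratio, and all points share both libraries. Other SLC genes, without the mitochondrial SLC25 carriers, showed 17 of 123 expressed genes at least 2-fold lower (13.8%), and SLC25 showed 1 of 39 (2.56%). Low ratios went with low levels in the other SLC genes too. In the same ranges of level, 12 of 47 (25.5%), 4 of 50 (8%) and 1 of 26 (3.85%) of them were at least 2-fold lower. Whether members differ from these sets beyond their level was not tested.

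**Figure D4:**
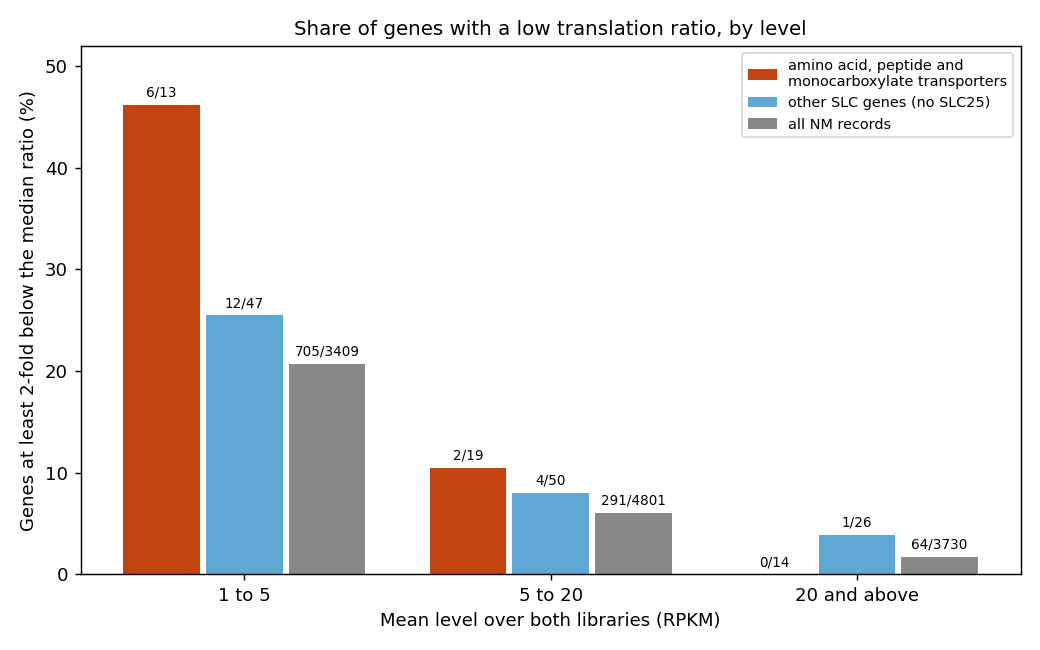
Percentage of genes at least 2-fold below the median ratio, by mean level over both libraries, for the transporter genes, other SLC genes and all NM records, with counts above the bars. At 1 to 5 RPKM the transporter genes reach 6 of 13 (46.2%), and at 20 RPKM and above 0 of 14. Of these 6, SLC36A2, SLC6A20, SLC7A14 and SLC16A6 passed the filter on the mean only through their mRNA level.

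Members that neighbour each other on a chromosome, by RefSeq gene order, did not share levels. SLC36A1, SLC36A2 and SLC36A3 lie side by side on chromosome 5, at 18.9, 2.85 and 0 RPKM in the mRNA library. SLC38A1, SLC38A2 and SLC38A4 are neighbours on chromosome 12, at 53.4, 44.2 and 3.67 RPKM. SLC6A19 (2.11 RPKM) lies beside SLC6A18, listed at 0, and SLC16A13 (14.1 RPKM) beside SLC16A11 (1.55 RPKM). SLC6A12 (5.42 RPKM) and SLC6A13 (0.419 RPKM) form another such pair.

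Genes that work with these carriers mostly lay less than 2-fold from the median. Of the 5 carrier chaperones, 3 were expressed and 0 were 2-fold from the median. BSG was followed by its relative NPTN, also a partner of monocarboxylate carriers, at 38.2 and 56.3 RPKM (0.60), and by EMB at 1.52 and 1.34 RPKM (-0.13).

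Of 24 amino acid sensing genes, 23 were expressed, 13 above the median and 10 below, with none 2-fold away (median 0.01). Their ratios ran from -0.85 to 0.52, and whole counting intervals lay below the median for 5 and above it for 7. ATF4, the transcription factor of the amino acid response, had 194.9 and 191.2 RPKM (0.01). The lysosomal Ragulator subunits LAMTOR1 (128.1 and 170.0 RPKM, 0.45) and LAMTOR4 (82.2 and 60.6 RPKM, -0.40) went opposite ways. Brush border peptidases, which release the substrates of SLC15A1 and SLC6A19, had 6 of 8 expressed genes below the median (list median -0.28). The share below the median was 47.4% among expressed NM records. Whole counting intervals lay below the median for 3 of the 8 peptidases and above it for 1. DPP4 had 60.5 and 69.8 RPKM (0.24), ENPEP 18.7 and 19.6 RPKM (0.10) and MEP1A 16.5 and 11.4 RPKM (-0.49). GGT1, which breaks down glutathione outside the cell, was the one at least 2-fold lower, at 8.60 and 2.58 RPKM (-1.66, interval -2.11 to -1.30).

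Lactate, glutamine and serine metabolism had 25 of 26 genes expressed, 14 above and 11 below the median, with none 2-fold away (median 0.17). Whole counting intervals lay below the median for 9 of them and above it for 11. The lactate dehydrogenases were LDHB at 428.6 and 487.3 RPKM (0.22) and LDHA at 438.5 and 358.4 RPKM (-0.25). GLUD1, which turns glutamate into a citric acid cycle intermediate, had 129.7 and 228.8 RPKM (0.86). GPT, an alanine transaminase below the expression limit, had 1.21 and 0.191 RPKM.

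The label of the cells was checked against markers. Of 18 enterocyte and intestinal epithelial markers, 16 were expressed, among them VIL1 at 109.1 and 116.1 RPKM and CDX2 at 79.8 and 87.8 RPKM, while KRT20 and LCT were below 1 RPKM on average. GUCY2C was the one expressed marker of this list at least 2-fold lower (8.94 and 3.78 RPKM, -1.18, interval -1.48 to -0.93). Of 6 immune markers 3 were expressed, CD68, LYZ and CD14 (3.40 to 12.97 RPKM in the mRNA library), with summed levels of 29.7 and 24.98 RPKM, while the pan-leukocyte PTPRC had 0.363 and 0.0332 RPKM. Of 3 endothelial markers PECAM1 was expressed, with sums of 4.76 and 2.04 RPKM, and CDH5 had 0.276 and 0.262 RPKM. All 5 fibroblast markers were expressed, their sums being 67.6 and 49.7 RPKM, most of it from COL1A1. Of 3 neuronal markers SYP was expressed (6.14 and 13.5 RPKM), and of 2 muscle markers none. The part of other cell types in the transporter values was not tested.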

How the data were processed

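Poly(A) RNA of Caco-2 cells was sequenced in 2 libraries, 1 from total RNA (mRNA) and 1 from ribosome-nascent chain complexes (RNC-mRNA). The deposited values are RPKM, computed by the authors for 1 RefSeq record per gene symbol, per the file headers. The submitters' processing notes name the build hg19, and the aligner and counter are not given in the sources used here. Strand is not recorded, and how reads that fit several genes were treated is not given.

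The relative ratio is log2((RNC-mRNA + 0.1)/(mRNA + 0.1)) minus its median over all records with a mean of at least 1 RPKM (-0.04), fitted on the whole table. A fold change on this scale understates the change of low genes. A distance of 2-fold from the median stands in for a test, as each level has 1 library.

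Reads were recovered from the RPKM values. Each library's total is the whole number at which most records of known length hold whole reads, within rounding to 7 digits: 9640364 reads (2069 records, next best 1774) and 11083302 reads (1776, next best 1511). A gene's reads follow from the transcript length, nearest its GENCODE 29 transcript and within 5%, at which both values are whole (relative tolerance 2e-07 beyond rounding). This held for 35 of the 46 expressed members, and the fewest possible reads were taken for the other 11. Summed over all records these reads came to 103% of both totals, so some are too high or were counted for more than 1 record. Intervals are exact Clopper-Pearson 95% intervals of the reads. They use no pseudocount and cover counting error only, since PCR copies are not independent molecules. The recovery was tested on simulated data.

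Named were all members with a mean of at least 1 RPKM, and in each partner and pathway list the 3 most abundant and all at least 2-fold from the median. The cell markers, and any other gene outside this rule, were chosen after their values were seen. The members and lists were chosen with earlier results of these data known. Alternatives were pseudocounts of 0.01 and 1, a mean of at least 5 RPKM, no filter, 3 other centrings, the interval rule and detection at 0.1 RPKM. Python 3.11.15, pandas 2.3.3, scipy 1.17.1 and matplotlib 3.10.9 were used. Values of some genes are not reported here.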

Additional observations from a re-analysis of the deposited data

How the results depend on the processing

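The count of transporter genes at least 2-fold lower depended on how low levels were handled. It was 8 as reported, 2 with a pseudocount of 1 RPKM, 3 with a mean of at least 5 RPKM, 15 with no filter on low values, and 5 when the counting interval had to lie wholly beyond 2-fold. With no filter 1 gene, SLC38A8, was at least 2-fold higher. With a mean of at least 5 RPKM the 3 were SLC6A9, SLC16A4 and SLC16A3, which lies just outside the line otherwise. The share of NM records called lower moved in the same direction, to 5.69%, 4.88% and 12.6% under the first 3 of these. The pseudocount of 0.01 RPKM and the 3 other centrings kept all 8. Of the 46 relative ratios, 5 moved beyond their counting interval with a pseudocount of 1 RPKM and 3 with upper quartile scaling, and none of the 8 called ones changed sign under the alternatives run. No paired analysis was possible because each level has 1 library. Leaving out a library was likewise not possible, and depth limits the ratios of SLC3A1, SLC7A9 and SLC16A11.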
